A study of Arabidopsis thaliana with 24 samples.

Results

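Undamaged root tips of the brl3-2 mutant were compared with those of wild-type Arabidopsis thaliana, using 6 of the 12 libraries in the series. The genotypes were brl3-2 (line SALK_006024C, a T-DNA insertion line of the brassinosteroid receptor gene BRL3) and Col-0 (WT). Libraries were chosen by genotype and treatment label alone: the 3 brl3-2 mock libraries and the 3 WT mock libraries. Tips of the main root were taken from seedlings 6 days old that had spent 2 h in liquid medium with DMSO (mock), so per the treatment protocol both groups share the transfer to liquid and the solvent. The sample titles write "condition2" after the word control for every brl3-2 mock library and "condition" for every WT mock library. The labels do not say what the added digit means, and anything it marks cannot be told apart from genotype within mock. The remaining 6 libraries came from seedlings of the same 2 genotypes given zeocin, a DNA-breaking antibiotic of the bleomycin family, and served here to look at the same genotype difference in other samples. The mutant is represented by a single insertion line with no second allele or complemented line among the samples, so an effect of losing BRL3 and any other difference carried by this line cannot be told apart. Each tip is a mixture of cell types, whereas BRL3 is known from vascular cells.

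Brassinosteroids are plant steroid hormones that are perceived at the cell surface by leucine-rich repeat receptor kinases. BRI1 is the main receptor and is made in most growing cells, BRL1 and BRL3 bind the hormone as well and are made mainly in vascular and stem cells, and BRL2 (also called VH1) is a vascular relative not known to bind it. With co-receptors of the SERK family, including BAK1, an active receptor switches off the kinase BIN2, which lets the transcription factors BZR1 and BES1 act on growth genes and repress genes of hormone synthesis. In roots, BRL3 is known for its role in the stem cell niche and, when made in excess, for drought tolerance with accumulation of osmoprotectant sugars and proline.

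Very few transcripts were called different between the genotypes. Of 19437 genes with enough reads, 5 were called different, which is 0.0257% of those tested, with 4 higher in brl3-2 (0.0206%) and 1 lower (0.00514%). The gene that fell was BRL3 itself, which stood 10.9-fold below WT. The 4 that rose were AT1G75945 and AT3G29140, both annotated as uncharacterized proteins, and AT2G08735 and AT1G06963, both long non-coding RNAs. No other listed gene of brassinosteroid perception, signalling, synthesis or response was called, and neither was any listed marker of a root tissue. With 0.0257% of all genes called, lists this short would mostly hold no call, so a lack of calls in them carries little weight. A gene was called at an adjusted p under 0.05, with Benjamini-Hochberg adjustment over all 19437 genes of a two-sided edgeR quasi-likelihood test fitted to the 12 libraries. Levels are CPM values, that is reads of a gene scaled to the library total with TMM factors, changes are log2 values of brl3-2 over WT ± SE, and every group has 3 libraries.

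The 6 mock libraries held 32706887 to 35052884 counts, except for WT mock 3 with 70212858, and 21726 to 22444 genes had a read. WT mock 3 also stood apart from the other WT libraries in its counts: the chi-square per degree of freedom was 91.9 and 98.5 against them, while the other pairs within a group gave 8.22 to 22.7. The leading principal component, with 42.1% of the variance, placed WT mock 3 at 41.2 and brl3-2 mock 3 at 23.6, apart from 4 libraries at −27.8 to −5.42, and genotypes overlapped on it. Library brl3-2 mock 2 stood apart in shoot photosynthesis genes, given below. Medians of gene lists moved with single libraries. Where the median of a list is printed, its lowest and highest value over the 6 fits that leave out 1 mock library are given too.

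BRL3 (AT3G13380, chr3:4346330-4350939, plus strand, TAIR10.1) had 0.698, 1.26 and 1.06 CPM in brl3-2 root tips, against 9.55, 10.4 and 12.9 CPM in WT root tips. Every mutant library lay far below every WT library. The mean was 1.00 ± 0.285 CPM in brl3-2 and 10.9 ± 1.73 CPM in WT (SD, n = 3 each), a change of −3.45 ± 0.23 with a 95% interval of −3.94 to −2.95 (edgeR adjusted p = 4.8e-05). The mutant libraries were not empty: they held 24, 44 and 34 reads of BRL3, against 333, 378 and 854 in WT. A count per gene does not tell which part of the transcript those reads came from. The longest match elsewhere in the genome is in BRL1, at 78.8% identity over 3604 bases. No alignment of 50 bases or more elsewhere reached 95% identity over its whole length. Shorter stretches within an alignment were not examined, so reads shared with BRL1 were not tested. Exons on the opposite strand, those of the neighbouring gene AT3G13390, cover 0.0886% of the exon bases of BRL3.

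AT1G75945 (chr1:28515245-28515916, minus strand) had the largest fitted rise of the called genes. It had 5.44, 4.87 and 3.51 CPM in brl3-2, against 0.0287, 0.055 and 0.0151 CPM in WT. The gene was close to silent in every WT library, at 4 reads in all, and had 470 reads in the mutant libraries. The ratio of counts was 159 (95% counting interval 61.8 to 587) and the fitted change was 7.15 ± 0.70 (edgeR adjusted p = 4.8e-05). Its start lies close to that of SKP1 (AT1G75950), on the opposite strand, which encodes a subunit of SCF ubiquitin ligases. SKP1 had 307, 315 and 280 CPM in brl3-2 and 297, 283 and 300 CPM in WT, and these ranges overlapped.

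AT3G29140 (chr3:11105746-11106144, plus strand) had 1.42, 1.26 and 1.43 CPM in brl3-2, against 0.258, 0.220 and 0.211 CPM in WT. The 3 mutant libraries agreed closely and none came near a WT library. The change was 2.58 ± 0.25 (edgeR adjusted p = 0.0020), or 5.96-fold between the means. On the same strand just upstream lies AT3G00560 (chr3:11104610-11105261), an uncharacterized RNA gene. It had 6, 14 and 13 reads in brl3-2 and 0, 0 and 1 in WT, a count ratio of 44.7 (95% counting interval 7.48 to 1819). It was not called by edgeR in mock (adjusted p = 0.16) and was called by limma-voom (0.029). Beyond it lies AT3G29130 (chr3:11099603-11104073, minus strand), annotated as a KxDL motif protein, which had 10.6, 10.7 and 9.83 CPM in brl3-2 and 8.29, 7.32 and 6.11 CPM in WT. Its mutant libraries lay above its WT libraries, at 0.53 ± 0.13, and it was not called (edgeR adjusted p = 1.0). AT3G00560 and AT3G29130 are given for their position and were picked after their values were seen.

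The long non-coding RNA AT2G08735 (chr2:14907257-14907716, plus strand) had 0.814, 0.801 and 0.902 CPM in brl3-2, against 0.0287, 0 and 0.0302 CPM in WT. WT libraries held 3 reads in all and mutant libraries 85, which gives a count ratio of 38.4 (95% counting interval 12.7 to 190) and a fitted change of 5.09 ± 0.80 (edgeR adjusted p = 0.0051). Its level was under the 1 CPM of the rule for naming genes, and it was named after its values were seen, as 1 of 5 calls. The other long non-coding RNA, AT1G06963 (chr1:13501086-13502283, plus strand), had 1.22, 1.23 and 0.653 CPM in brl3-2, against 0.115, 0.165 and 0.121 CPM in WT. The lowest mutant library, brl3-2 mock 3, was still above the highest WT library. The change was 2.95 ± 0.34 (edgeR adjusted p = 0.0052), and leaving out WT mock 1 or WT mock 3 ended the call (adjusted p = 0.057 and 0.077). In a fit to the 6 mock libraries alone, BRL3 and AT1G75945 were called, and AT3G29140, AT2G08735 and AT1G06963 were not (adjusted p = 0.066, 0.066 and 0.40). Leaving out both mock libraries numbered 3 ended the calls of AT3G29140 and AT2G08735 (adjusted p = 0.097 and 0.12). None of the 4 genes that rose shares exon bases with a gene on the opposite strand. None has an alignment of 50 bases or more elsewhere in the genome with 95% identity or above over its whole length. The longest match of AT3G29140 elsewhere, on chromosome 4, runs over 403 bases at 86.8% identity. Shorter stretches within an alignment were not examined, so reads shared with that place were not tested.

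**Figure D1:**
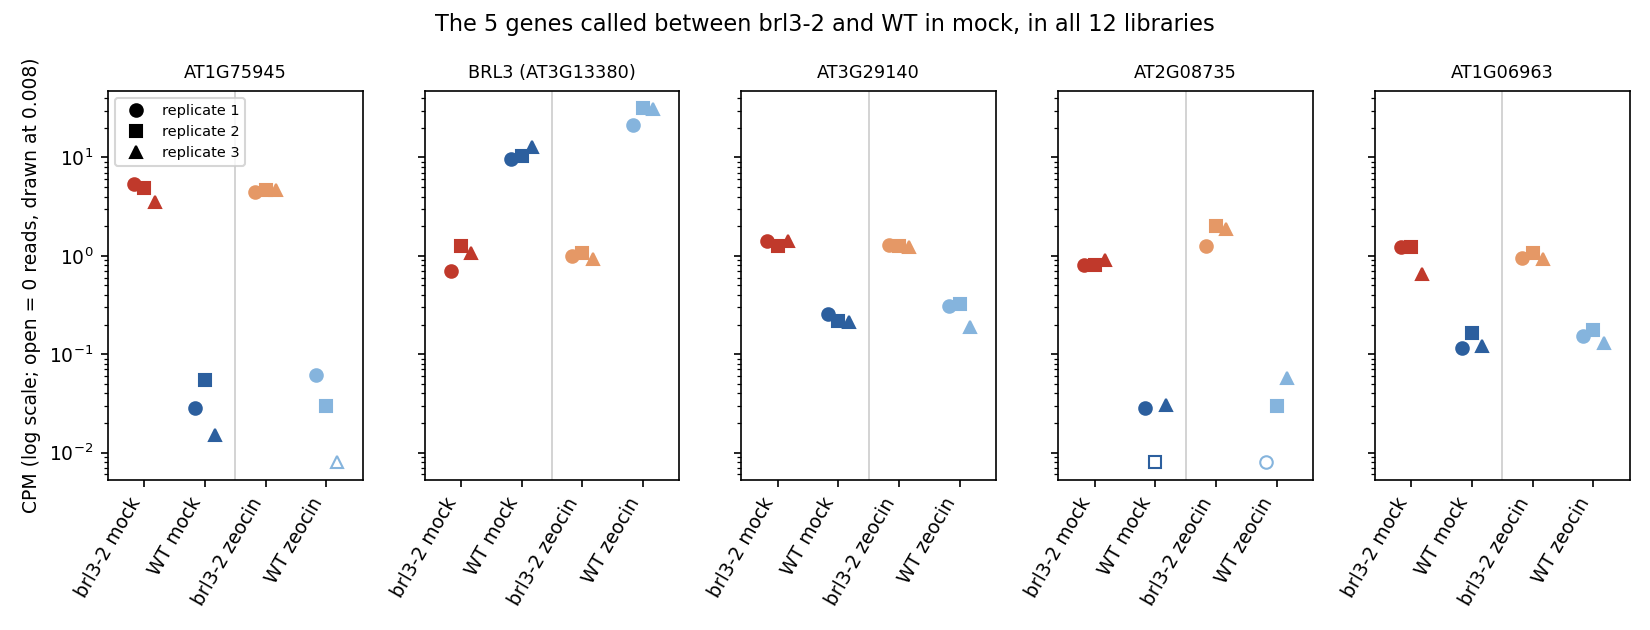
Level (CPM, log axis) of the 5 genes called in mock, in each of the 12 libraries, with brl3-2 left of WT within each treatment. Each point is 1 library, its shape gives the replicate number, and open points had 0 reads. In mock, BRL3 stands at 0.698 to 1.26 CPM in brl3-2 and 9.55 to 12.9 CPM in WT, and for the other 4 genes every brl3-2 library lies above every WT library.

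The sequences around the annotated starts of the 5 called genes are shown because these 5 transcripts carry the whole called difference between the genotypes. Each window runs from 250 bases before to the end of the first 50 bases of the gene, 5′ to 3′ on the strand of the gene, read from the RefSeq TAIR10.1 genome. They are chr3:4346080-4346379 on the plus strand for BRL3, chr1:28515867-28516166 on the minus strand for AT1G75945, chr3:11105496-11105795 on the plus strand for AT3G29140, chr2:14907007-14907306 on the plus strand for AT2G08735 and chr1:13500836-13501135 on the plus strand for AT1G06963. Capitals mark matches to TATAAA or TATATA on either strand.
BRL3: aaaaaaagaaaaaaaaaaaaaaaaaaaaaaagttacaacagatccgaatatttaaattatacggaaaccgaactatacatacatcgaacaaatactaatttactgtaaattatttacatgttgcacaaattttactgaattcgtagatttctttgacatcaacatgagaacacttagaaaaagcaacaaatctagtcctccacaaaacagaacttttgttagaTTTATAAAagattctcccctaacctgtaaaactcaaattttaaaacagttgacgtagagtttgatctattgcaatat
AT1G75945: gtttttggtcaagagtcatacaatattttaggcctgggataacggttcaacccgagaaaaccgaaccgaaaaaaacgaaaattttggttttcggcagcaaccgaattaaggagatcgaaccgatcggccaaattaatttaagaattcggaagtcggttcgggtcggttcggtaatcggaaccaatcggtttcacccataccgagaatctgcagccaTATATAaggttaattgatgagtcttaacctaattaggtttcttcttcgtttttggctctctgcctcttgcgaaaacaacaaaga
AT3G29140: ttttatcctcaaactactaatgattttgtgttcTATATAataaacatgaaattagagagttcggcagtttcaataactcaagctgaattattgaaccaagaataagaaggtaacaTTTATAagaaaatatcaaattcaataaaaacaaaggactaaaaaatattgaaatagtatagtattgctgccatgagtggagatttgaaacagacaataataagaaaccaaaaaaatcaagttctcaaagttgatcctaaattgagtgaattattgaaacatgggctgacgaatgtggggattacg
AT2G08735: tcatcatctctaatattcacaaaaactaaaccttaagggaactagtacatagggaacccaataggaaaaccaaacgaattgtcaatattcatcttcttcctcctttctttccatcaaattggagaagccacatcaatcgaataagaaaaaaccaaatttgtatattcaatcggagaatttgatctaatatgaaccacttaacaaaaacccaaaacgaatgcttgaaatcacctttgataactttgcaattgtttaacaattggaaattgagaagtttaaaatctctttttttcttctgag
AT1G06963: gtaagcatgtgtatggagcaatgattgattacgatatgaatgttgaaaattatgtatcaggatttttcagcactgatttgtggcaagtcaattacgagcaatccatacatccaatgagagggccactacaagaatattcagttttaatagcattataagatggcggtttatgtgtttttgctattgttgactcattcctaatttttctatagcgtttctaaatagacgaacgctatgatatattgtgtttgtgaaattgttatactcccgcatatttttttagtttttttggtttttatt

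TATAAA, a core of the TATA box, matched in the windows of BRL3, where 2 matches on opposite strands overlap, and of AT3G29140. TATATA matched in those of AT1G75945, at position −34 from the annotated start, and AT3G29140. Among the 37897 windows of the same length in the genome 48.8% hold TATAAA and 32.4% hold TATATA. Both BZR1-type elements searched, CGTGCG and CGTGTG, and the G-box CACGTG that BES1 and other factors can bind, had no match on either strand in any of the 5 windows. These letters occur in 1.75%, 6.19% and 6.46% of all windows.

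The same 5 genes stood apart in the libraries from zeocin-treated root tips. The mock comparison used these libraries only for the shared filter on low counts, TMM factors and estimate of spread. In those libraries 8 genes were called between genotypes (0.0412% of those tested), and all 5 were among them in the same direction. The other 3 were AT3G00560, higher in brl3-2 with 58 reads against 1 in WT, and AT4G04223 and AT5G35940, lower in brl3-2 (edgeR adjusted p = 0.031, 0.031 and 0.037), each with the direction it had in mock. BRL3 had 1.01, 1.06 and 0.935 CPM in brl3-2 with zeocin, against 21.5, 31.7 and 31.2 CPM in WT with zeocin (−4.81 ± 0.22, edgeR adjusted p = 2.8e-06). AT1G75945 had 479 reads in brl3-2 and 3 in WT with zeocin, a count ratio of 208 (95% counting interval 70.8 to 1013). AT2G08735 had 180 and 5 reads in the same groups, a ratio of 46.9 (19.7 to 146). The changes of AT3G29140 and AT1G06963 with zeocin were 2.26 ± 0.25 and 2.69 ± 0.33 (edgeR adjusted p = 0.0055 and 0.012). In a fit to the 6 zeocin libraries alone, 4 of the 5 were called and AT3G29140 was not (adjusted p = 0.14). No gene was called by edgeR for a genotype difference that itself differed between zeocin and mock. At an unadjusted edgeR p under 0.05 there were 194 genes. For BRL3 the genotype difference with zeocin minus that in mock was −1.37 ± 0.32, with a 95% interval of −2.06 to −0.67. Its unadjusted edgeR p was 0.0012 and its adjusted p 1.0, so a difference was not called and was not excluded.

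Away from the called genes, the data bound how large a genotype difference could be. For 17092 genes (87.9%) the 95% interval of the change lay within 2-fold in both directions. Among the 17371 genes with a mean of at least 1 CPM in mock this held for 16503, and among the 11915 with at least 10 CPM for 11693 (98.1%). Of the 2066 genes under 1 CPM it held for 28.5% only, so differences of most rare transcripts were not bounded below 2-fold. All genes together had a median change of −0.00 and the bounds of the 95% interval lay a median of 0.28 from the estimate. An unadjusted p under 0.05 was found for 771 genes (3.97%), and the groups did not overlap for 1500 (7.72%), of which 789 were higher in brl3-2 (4.06%) and 711 lower (3.66%). The mean of the called genes in the group where they were higher was 0.839 to 10.9 CPM, against a median of 16.96 CPM over all genes tested.

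**Figure D2:**
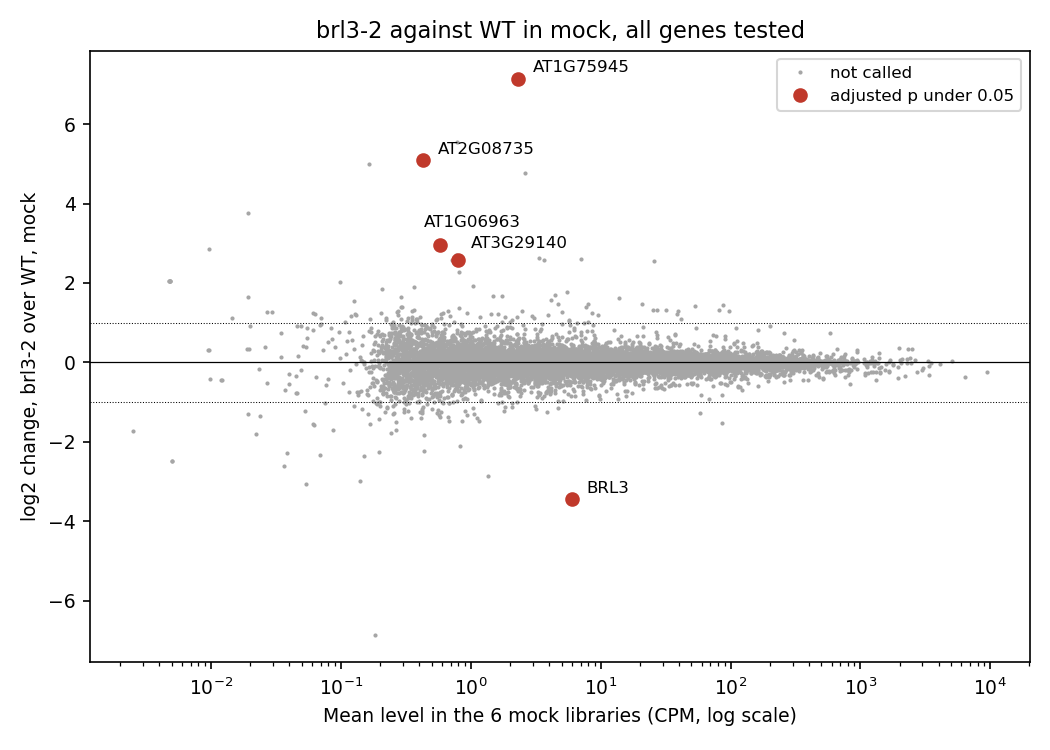
Change between brl3-2 and WT in mock (log2, vertical axis) against mean level in the 6 mock libraries (CPM, log axis) for the 19437 genes tested, with the 5 called genes in red and named. Most of the cloud lies within the lines at 2-fold, and the spread widens below 1 CPM.

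For relatives and partners of BRL3, the data bounded any genotype difference below 2-fold. BRI1, the main receptor, had 254, 240 and 256 CPM in brl3-2 and 230, 247 and 219 CPM in WT, and the ranges overlapped. Its change was 0.11 ± 0.06 with a 95% interval of −0.03 to 0.24. BRL1, the closest relative of BRL3, had 3.95, 3.63 and 4.29 CPM in brl3-2 and 4.13, 3.55 and 4.12 CPM in WT. That is a change of 0.01 ± 0.19 (−0.41 to 0.43), so a difference of 2-fold in either direction lay outside the interval. BRL2 changed by 0.11 (−0.10 to 0.33), and the co-receptor genes BAK1, SERK1, SERK2 and SERK4 by −0.02, 0.09, −0.01 and −0.17, each with an interval within 2-fold. Per length of exon, BRL3 stood at 0.222 ± 0.063 RPKM in brl3-2 and 2.42 ± 0.383 RPKM in WT, whereas BRL1 stood at 0.897 ± 0.074 and 0.891 ± 0.075 RPKM and BRI1 at 57.1 ± 1.98 and 53.0 ± 3.22 RPKM (SD, n = 3 each). On that scale BRI1 was the most abundant of the receptor genes in both genotypes, and BRL3 ranked above BRL1 in WT and below it in brl3-2.

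Downstream of the receptors, 0 of 15 tested genes were called, beside 0.0257% of all genes, and the intervals of 14 lay within 2-fold. BIN2, the kinase that holds the pathway off, changed by 0.01 ± 0.07, the transcription factor genes BZR1 and BES1 by 0.08 ± 0.10 and 0.05 ± 0.10, and the phosphatase gene BSL3, with the smallest p of the list, by 0.12 ± 0.07. BSU1, at 0.197 CPM in brl3-2 and 0.266 CPM in WT, was the member too rare to bound. Of 15 genes of hormone synthesis and breakdown none was called and 14 intervals lay within 2-fold. Synthesis genes known to be repressed by the hormone were at −0.11 ± 0.13 for DWF4, −0.01 ± 0.08 for CPD, 0.33 ± 0.19 for BR6OX1 and 0.21 ± 0.12 for BR6OX2. FK, a sterol reductase gene, had the smallest p of that list at 0.15 ± 0.07 (edgeR adjusted p = 1.0). Among 7 tested of 11 hormone-responsive genes, BEE1, a growth-promoting bHLH factor gene induced by brassinosteroid, had 0.233, 0.343 and 0.560 CPM in brl3-2 and 0.545, 1.02 and 1.31 CPM in WT. Those ranges overlap narrowly, and the change of −1.37 ± 0.48 did not pass (edgeR adjusted p = 1.0). BEE2, a related bHLH factor gene, was at −0.43 ± 0.25 and MYBL2 at −0.20 ± 0.44. TCH4, IAA19, EXPA8 and IBH1 lay between −0.22 and 0.26. The median of the 7 genes was −0.20 (−0.44 without WT mock 1 to 0.30 without WT mock 3), so its sign turned with 1 library.

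**Figure D3:**
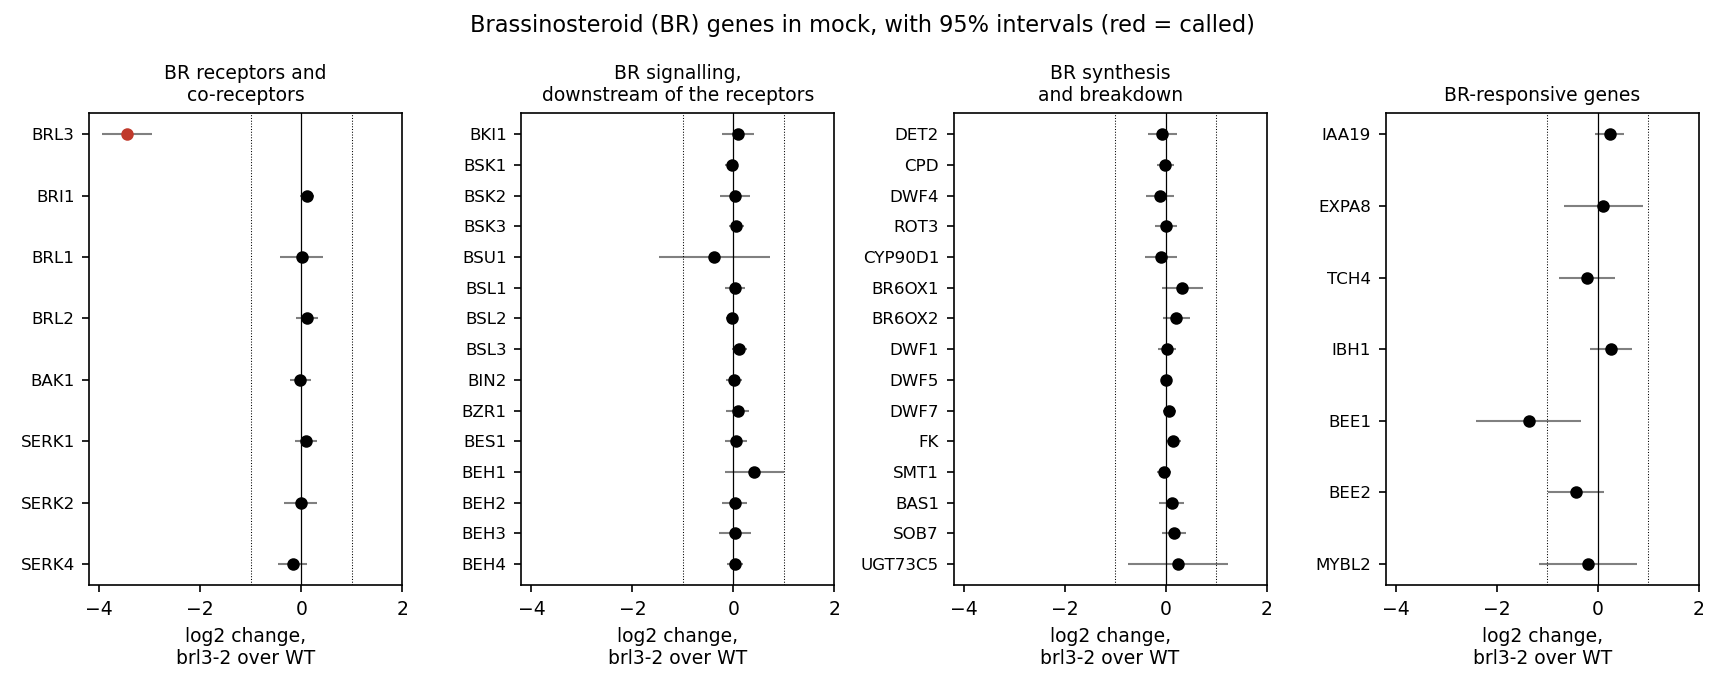
Change between brl3-2 and WT in mock (log2, horizontal axis) for every tested gene of brassinosteroid perception, signalling, synthesis and response, with points for the estimate and bars for the 95% interval. BRL3 at −3.45 is the only gene called, and the intervals of the other 7 receptor and co-receptor genes lie within 2-fold.

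No gene near BRL3 was called. Distances were taken between starts, here the lower coordinate of a gene whatever its strand. Of 43 tested genes within 100 kb of BRL3, 0 were called by edgeR, 0 by DESeq2 or limma-voom, and 1 had an unadjusted edgeR p under 0.05. Their median change was −0.01 and their range −0.41 to 0.89. Within 500 kb the count was 0 of 224, with 9 at an unadjusted p under 0.05. Over all genes tested, 0.0257% were called by edgeR and 3.97% had an unadjusted edgeR p under 0.05. At so low a share of calls, none would be likely in sets of these sizes. The nearest tested genes on the lower-coordinate side were WIP3, AT3G13350 and AT3G13340, at −0.09, −0.04 and −0.07. On the other side stood AT3G13404, AT3G13410 and AT3G13420, at 0.33, 0.04 and 0.26. The 4 genes that rose lie on chromosomes 1, 2 and 3, with none called on chromosomes 4 and 5. Within 100 kb of AT1G75945 none of 47 other tested genes was called, nor any of 17 around AT3G29140, of 49 around AT2G08735 and of 5 around AT1G06963. AT1G76210, 1 of those 47, stood at −2.25 and was not called.

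**Figure D4:**
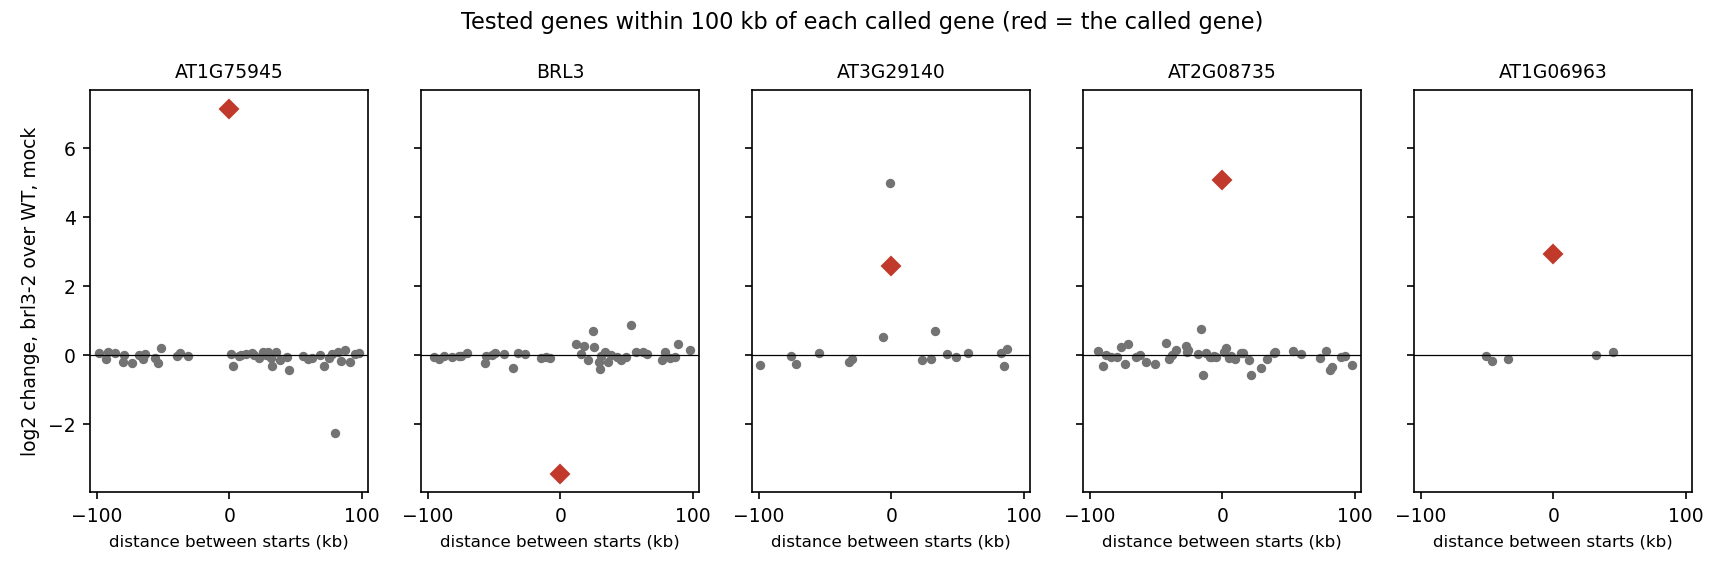
Change between brl3-2 and WT in mock (log2, vertical axis) of tested genes within 100 kb of each called gene, against the distance of their starts from the start of the called gene (kb). A start here is the lower coordinate of a gene, whatever its strand. Called genes are the red diamonds at distance 0, and the neighbours of BRL3 lie between −0.41 and 0.89.

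Markers of root tissues were next set side by side, since BRL3 is known from the vasculature and the stem cell niche. In whole tips, fewer cells of a type and less RNA per cell cannot be told apart. Of 14 tested niche genes none was called, at a median of 0.06 (−0.02 without brl3-2 mock 1 to 0.12 without WT mock 2), beside −0.00 for all genes. WOX5, which marks the quiescent centre, had 0.771 CPM in brl3-2 and 0.747 CPM in WT on average (0.07 ± 0.31), the root patterning genes SHR and SCR changed by −0.08 ± 0.09 and 0.03 ± 0.09, and PLT1 and PLT2, which maintain the niche, by 0.28 ± 0.18 and 0.30 ± 0.27. The receptor kinase gene ACR4 had the smallest p of the niche list, at 10.6, 11.7 and 10.6 CPM in brl3-2 and 9.72, 10.4 and 9.02 CPM in WT (0.18 ± 0.11, edgeR adjusted p = 1.0). None of 19 phloem genes was called, with 16 above 0 and a median of 0.07, and without WT mock 3, 9 were above 0 at a median of −0.05 (up to 0.17 without brl3-2 mock 1). CALS7, which makes callose in sieve plates, was at 0.20 ± 0.08, and SUC2, the sucrose loader of companion cells, at −0.23 ± 0.25. All 12 tested xylem genes were above 0, at 0.01 to 0.37 with a median of 0.17, and none was called. Without brl3-2 mock 3 the median was 0.07 with 8 above 0, and without brl3-2 mock 1 it was 0.22. The 3 cellulose synthase genes of the secondary wall in that list, CESA4, CESA7 and CESA8, stood at 0.22 ± 0.16, 0.24 ± 0.12 and 0.37 ± 0.17, and without WT mock 3, 9 of the 12 genes were above 0.

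Root hair and epidermis markers summed to 768, 665 and 746 CPM in brl3-2, against 457, 355 and 677 CPM in WT. The highest WT library, WT mock 3, lay within the range of the mutant libraries. Of the 11 genes 0 were called and 9 were above 0, beside 48.9% of all genes above 0. The median was 0.38, and 5 had every brl3-2 library above every WT library, beside 4.06% of all genes. LRX1, a cell wall protein gene of growing root hairs, had the highest value at 0.87 ± 0.31, followed by PRP3 at 0.82 ± 0.39 and EXPA18 at 0.68 ± 0.34. RHD2, the NADPH oxidase gene of root hair tips, had 75.9, 77.2 and 83.0 CPM in brl3-2 and 61.4, 57.9 and 73.3 CPM in WT (0.29 ± 0.10, edgeR adjusted p = 1.0). RHD6, GL2, WER and CPC, which set epidermal cell fate, lay between −0.05 and 0.14. Endodermis markers, which form the Casparian strip, summed to 771, 653 and 796 CPM in brl3-2 and 577, 440 and 1222 CPM in WT. WT mock 3 was the highest of the 6 libraries and the other WT libraries were the lowest. The median change of the 9 endodermis genes was 0.01, with 0.49 without WT mock 3 and −0.24 without WT mock 2. For the root hair list the median was 0.59 without WT mock 3 and 0.22 without WT mock 2. None of the 4 root cap genes was called (−0.17 to 0.12). The part of differentiated tissue in these values was not tested.

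Shoot photosynthesis genes, which mark tissue from outside the root tip, summed to 54.6, 315 and 38.1 CPM in brl3-2, against 77.1, 73.4 and 63.3 CPM in WT. Library brl3-2 mock 2 stood alone, and the other mutant libraries were below all WT libraries. LHCB1.1, a chlorophyll-binding protein gene, had 0.116, 14.8 and 0.218 CPM in brl3-2 and 0.201, 0.193 and 0.166 CPM in WT. The median of the 8 tested genes was 1.40 and became −0.63 without brl3-2 mock 2, while it reached 1.87 without brl3-2 mock 3. None of the 8 was called, and none of the 5 calls was lost without that library.

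**Figure D5:**
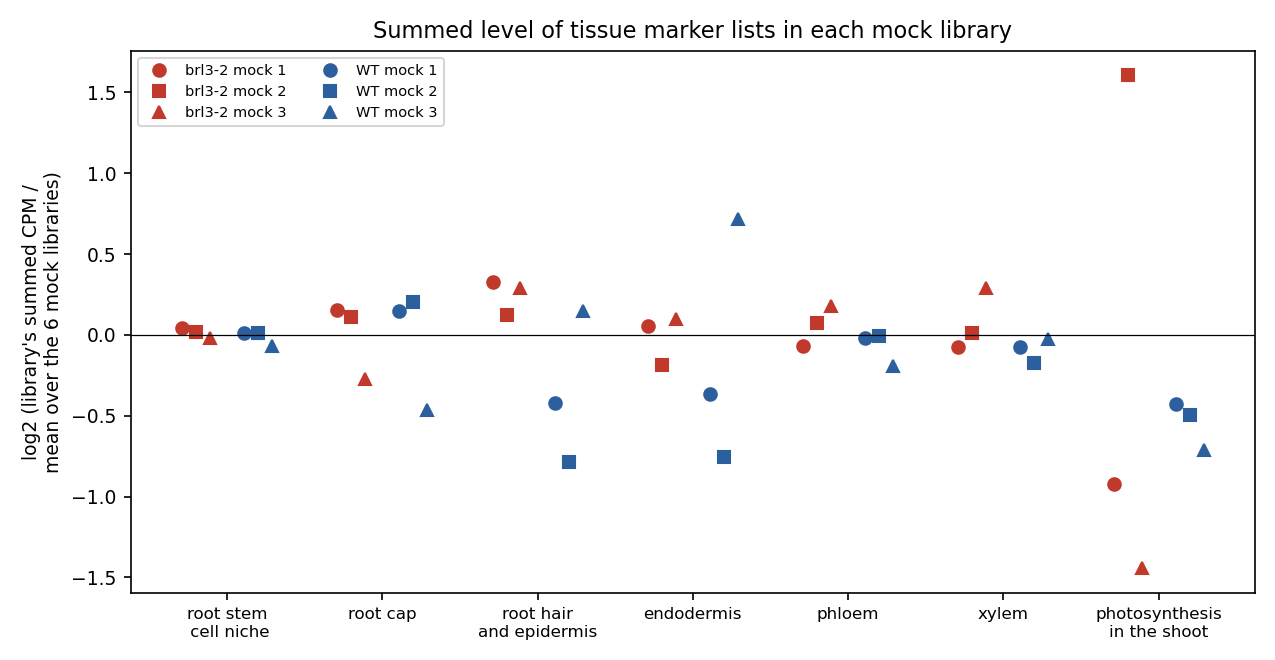
Summed CPM of the marker genes of each tissue list in the 6 mock libraries, relative to the mean over the 6 libraries (log2, vertical axis), with brl3-2 libraries left of WT libraries. Library brl3-2 mock 2 stands far above the others for shoot photosynthesis genes (315 CPM), and WT mock 3 is the highest for the endodermis (1222 CPM).

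No listed cell division or DNA damage gene was called between the genotypes in these undamaged tips. Of all genes tested, 0.0257% were called and 48.9% had a change above 0. All 20 genes of the G2/M list had intervals within 2-fold, with 18 above 0 at a median of 0.08 (0.04 without WT mock 3 to 0.11 without WT mock 1), and 12 above 0 without WT mock 3 or without brl3-2 mock 2. CYCB1;4, a mitotic cyclin gene, had the smallest p at 0.32 ± 0.12 (6.20 ± 0.665 CPM in brl3-2 and 4.98 ± 0.308 CPM in WT, SD, n = 3 each, edgeR adjusted p = 1.0). In the S phase list 11 of 12 genes were above 0 (9 without WT mock 3) and all 12 intervals lay within 2-fold. CDT1A, which licenses replication origins, had 14.9, 14.0 and 14.9 CPM in brl3-2 and 12.2, 11.1 and 12.8 CPM in WT. The groups did not overlap, but the change of 0.27 ± 0.08 was not called (edgeR adjusted p = 1.0). Among 16 tested DNA damage genes the median was 0.03 (−0.06 without WT mock 3 to 0.12 without WT mock 1) and 13 intervals lay within 2-fold. The master regulator gene SOG1 was at 0.03 ± 0.06, the kinase genes ATM and ATR at −0.03 ± 0.14 and −0.03 ± 0.11, and the ribonucleotide reductase gene TSO2 at 0.30 ± 0.14.

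Osmoprotectant and abscisic acid genes were counted because excess BRL3 is known to act on them. Of 16 tested genes 0 were called and 2 were above 0, beside 0.0257% and 48.9% of all genes, at a median of −0.22. Without WT mock 3, 9 were above 0 and the median was 0.06, and without brl3-2 mock 3 it was −0.35. GOLS1, which makes the galactinol used for raffinose, had 1.22, 1.55 and 0.902 CPM in brl3-2 and 2.58, 2.78 and 1.21 CPM in WT (−0.82 ± 0.35, edgeR adjusted p = 1.0). P5CS1, the rate-limiting gene of proline synthesis, changed by −0.01 ± 0.11, RD29A by −0.41 ± 0.37 and the dehydrin gene COR47 by −0.27 ± 0.29. The 19 tested ER body and glucosinolate genes had 18 above 0, at a median of 0.23. Without brl3-2 mock 3, 10 were above 0 at a median of 0.01, and without brl3-2 mock 1 the median was 0.40. CYP79B3, which starts indole glucosinolate synthesis, had 20.7, 19.2 and 76.3 CPM in brl3-2 and 13.8, 13.8 and 18.6 CPM in WT, so its 1.32 ± 0.48 rests mostly on brl3-2 mock 3 (edgeR adjusted p = 1.0).

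In the remaining lists no gene was called either. Auxin genes had a median of 0.08 (0.04 without brl3-2 mock 2 to 0.12 without WT mock 3), with the efflux carrier gene PIN3 at 0.16 ± 0.07. For cytokinin response genes it was −0.18 (−0.50 without WT mock 3 to 0.18 without WT mock 2), with ARR5 at −0.54 ± 0.20. Of the touch, wounding and jasmonate genes TCH3, a calmodulin-like gene, had 28.2, 41.7 and 70.6 CPM in brl3-2 and 29.7, 143 and 93.6 CPM in WT, and the WT libraries alone spanned a wider range than the mutant libraries. The median of the hypoxia list was −0.05 (−0.08 without WT mock 2 to 0.01 without WT mock 3) and that of the heat shock list −0.21 (−0.35 without WT mock 3 to −0.05 without WT mock 2). Pathogen defence genes had −0.06 (−0.35 without WT mock 2 to 0.22 without WT mock 3) and DNA methylation genes 0.02 (−0.12 without WT mock 3 to 0.11 without WT mock 1), and the sign of either turned with 1 library. Nutrient supply genes had 0.19 with 2 of 15 at an unadjusted edgeR p under 0.05, beside 3.97% of all genes. Without WT mock 3 the median was 0.56 with 9 at that level, none of them called, beside 11.4% of all genes. In that fit 7 of 11 root hair and epidermis genes and 5 of 9 endodermis genes were at that level too. Without WT mock 2 the nutrient median was −0.07. In the nutrient list the nitrate transporter gene NRT2.1, named after its values were seen, averaged 0.600 CPM in brl3-2 and 1.62 CPM in WT (−1.40 ± 0.43), and the phosphate transporter gene PHT1;4 had 52.6, 54.0 and 50.2 CPM in brl3-2 and 46.6, 37.2 and 39.9 CPM in WT (0.34 ± 0.09). MET1, which maintains CG methylation, was at 0.05 ± 0.09. In all, 273 of the 316 listed genes could be tested, and BRL3 was the only one called, beside 0.0257% of all genes tested.

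A further 8 genes were called by at least 1 alternative test but not by the edgeR fit above, and all are named after their values were seen. DESeq2 called 12 genes (0.0617% of those tested), 6 in each direction, and limma-voom 7 (0.0360%). AT2G06995 (chr2:7633214-7634069, plus strand), a long non-coding RNA, had no read in any of the 3 brl3-2 mock libraries and 18, 11 and 19 reads in WT mock. Setting the mutant group at a floor of 3 reads in all, it was at least 11.8-fold lower in brl3-2 (adjusted p = 0.16 by edgeR, 0.0071 by DESeq2 and 0.0018 by limma-voom). A stretch of its sequence matches a place on chromosome 1 at 95.9% identity. The non-coding RNA AT4G04223 had 0.581, 0.658 and 0.591 CPM in brl3-2 and 1.46, 1.76 and 1.90 CPM in WT (−1.49 ± 0.22, adjusted p = 0.073 by edgeR and 2.7e-04 by DESeq2, and called by edgeR with zeocin). Its value is uncertain, since the whole gene matches a region of chromosome 3 at 99.2% identity and reads could be split between them.

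AT5G35940, annotated as a mannose-binding lectin, had 32.3, 43.8 and 55.4 CPM in brl3-2 and 117, 182 and 82.7 CPM in WT (−1.54 ± 0.29, adjusted p = 0.46 by edgeR and 1.1e-04 by DESeq2). With zeocin it was called lower in brl3-2 by edgeR as well (adjusted p = 0.037). The thionin-like gene AT1G25275 had 83.0, 81.0 and 85.9 CPM in brl3-2 and 106, 119 and 106 CPM in WT, a small change with little spread (−0.41 ± 0.07, adjusted p = 0.15 by edgeR and 4.9e-05 by DESeq2). CH1, which makes chlorophyll b, was at −0.48 ± 0.10, the cell wall enzyme gene XTH16 at 0.71 ± 0.15 and the root hair peroxidase gene RHS18 at 1.48 ± 0.36, each called by DESeq2 alone (adjusted p = 0.048, 0.024 and 0.048). RHS18 had 34.7, 26.1 and 30.7 CPM in brl3-2 and 12.0, 6.22 and 14.4 CPM in WT. All of its mutant libraries lay above its WT libraries in mock, while with zeocin the ranges of 9.81 to 22.9 CPM in brl3-2 and 7.64 to 16.8 CPM in WT overlapped.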

How the data were processed

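The authors deposited a table of raw read counts per gene, 1 column per library. Per the labels' protocols, RNA of root tips was made into TruSeq Stranded mRNA libraries, each sequenced in 2 runs. Per the submitters' processing notes, reads were handled with HISAT2 2.1 and featureCounts 1.6.2, beside Trimmomatic 0.38, FastQC 0.11.2 and edgeR 3.34.1, on TAIR10. Settings, strand use and any adding of runs were not given in the sources used here. Loci were matched by identifier to TAIR10.1 (33011 of 33296), and 1 row without a gene name, at most 0.0039% of a library, was left out.

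Counts were fitted in R 4.3.3 with edgeR 4.0.16 (filterByExpr with minimum count 10 and minimum total 15, TMM, quasi-likelihood, 1 coefficient per group, 12 libraries). SEs come from the fitted weights and dispersions. The labels call the 3 libraries of a group biological replicates. Libraries within a group differed by more than sampling noise, so each was kept. Intervals of count ratios and floors cover counting error only. Code was tested on simulated data.

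Genes were named by a rule: BRL3, called genes whose groups did not overlap and whose higher mean reached 1 CPM, all tested receptor and co-receptor genes, the member of each other list with the smallest adjusted p (by unadjusted p where tied) and the 3 tested genes nearest to BRL3 on each side. Other genes named were picked after their values were seen. The comparison and the 24 lists were chosen with earlier results of these data known. The alternatives were RLE size factors, no filter, 6 libraries only, a replicate block, libraries left out, DESeq2 1.42.0 and limma-voom (limma 3.58.1). Labels disagree on the zeocin dose, so none is given.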

Additional observations from a re-analysis of the deposited data

How the results depend on the processing

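The number of genes called was 5 in the fit reported. It was 2 with only the 6 mock libraries, 3 without both mock libraries numbered 3 and 12 with DESeq2. It was 5 with RLE size factors and with no filter, 7 with limma-voom, 4 without both WT libraries numbered 3 (chosen after seeing the data), and 4 to 5 with 1 library left out. BRL3 was called in all 14 alternatives and ranged from −3.65 to −3.24 with 1 library left out (adjusted p up to 0.0011). AT1G75945 was called in all 14 as well. The 6-library fit lost AT1G06963, AT2G08735 and AT3G29140 (adjusted p = 0.40, 0.066 and 0.066). Without both mock libraries numbered 3, AT2G08735 (0.12) and AT3G29140 (0.097) were lost. Without both WT libraries numbered 3, AT1G06963 was lost (0.13). These fits also hold fewer libraries, and the cause of the lost calls was not tested. Correlations of same-numbered deviations were 0.29, 0.095 and 0.40, and those of unlike-numbered ones ranged from −0.46 to 0.26. Library brl3-2 mock 2 correlated better with WT mock 1 (0.26) than with WT mock 2 (0.095). Whether the replicate numbers pair the samples cannot be told from these values, and the fit reported did not pair them. With the replicate block 6 genes were called, the 5 and AT3G00560 (adjusted p = 0.042). Leaving out WT mock 3 gave 2226 genes at an unadjusted p under 0.05 (11.4%), against 771 in the fit reported, and 4 called. No called gene changed sign in any alternative. Signs were counted for 50 genes besides BRL3, not for every gene named above. Of these, 11 genes not called in the fit reported changed sign, never with an adjusted p under 0.05. No call lies within 100 kb of BRL3 in any alternative. Rare transcripts were bounded least: below 1 CPM most intervals did not lie within 2-fold in both directions.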
